A study of Mus musculus with 6 samples.

Results

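Amino acid breakdown enzymes were followed in the livers of insulin-resistant (IR) mice given insulin or its vehicle. A list of 47 gene names set the members, which span 10 routes, each the breakdown of 1 amino acid or of a few that share steps. The members were every row of the count table that carried 1 of these names. Of the 47 names, 46 were found, on 47 rows of the 54532 genes in the table, because Gcat had a second row with no count in any library. The name Gstz1-ps was not found, and 45 members passed the filter on low counts and were tested among 13377 genes. Tdh, a threonine dehydrogenase, and the second Gcat row did not pass it, at no more than 2 counts in a library. All mice were male C57BL/6J mice fed a high-fat diet (HFD) for 6 weeks from 8 weeks of age and fasted for 16 h. The IR insulin livers (n = 3) were taken 6 h after an intraperitoneal dose of insulin (0.75 units per kg) and the IR vehicle livers (n = 3) 6 h after bovine serum albumin (BSA), in which the insulin was carried. Each library came from the liver of 1 mouse, and chow-fed mice were not analysed here. RNA sequencing counts per gene were compared between the groups to ask how transcript levels differ 6 h after insulin in IR livers.

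The liver removes most amino acids that exceed the needs of protein synthesis. Nitrogen is stripped off by aminotransferases, dehydratases, lyases and glutamate dehydrogenase, and the carbon skeletons are opened in a few further steps to yield pyruvate, intermediates of the citric acid cycle or ketone body precursors. Many of these enzymes are known to be induced in fasting through glucagon, cyclic AMP and glucocorticoids, and to be held down by insulin. Branched chain amino acids are an exception, since their first step, a transamination, takes place mostly outside the liver. Several of the enzymes are also known to lie mainly in the periportal hepatocytes, which receive blood first.

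No member differed between the groups at an adjusted p below 0.05 by the quasi-likelihood test of edgeR, and neither did any other gene (0% of all genes tested). DESeq2 and limma voom also gave 0 members at that threshold, and 0 of all genes. At an unadjusted p below 0.05, 3 of the 45 members and 383 of all 13377 genes tested passed in edgeR. Adjusted p values of the members ran from 0.852 to 0.998. The study's own criteria were an unadjusted p below 0.05 and a log2 fold change of 0.35 or more in size. In the edgeR fit they were met by 3 members, all lower with insulin (6.67% of the 45, beside 1.86% of all genes). They were Kynu, the kynureninase of tryptophan breakdown, Hgd, the homogentisate dioxygenase of tyrosine breakdown, and Amdhd1, the imidazolonepropionase of histidine breakdown. None was higher with insulin by these criteria (1% of all genes). The study applied its cut-offs to DESeq2 results. With DESeq2 here, 7 members met them, all lower with insulin (15.6%, beside 2.69% of all genes).

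By sign alone, 36 of the 45 members had a lower fitted level with insulin (80% of the members, beside 51.4% of all genes) and 9 a higher one. The median log2 fold change of the members was −0.35, beside −0.017 over all genes tested. A single liver carried much of this difference. Without vehicle replicate 3 the members' median was −0.045, beside 0.024 over all genes, and 1 member (2.22%) met the study's criteria with a lower level, beside 4.86% of all genes. Without vehicle replicate 2 the median was −0.33, and 9 members (20%) met them, beside 2.06% of all genes. The plot of fitted changes shows, for each member, the estimate from all 6 libraries beside the estimates without either vehicle library.

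**Figure D1:**
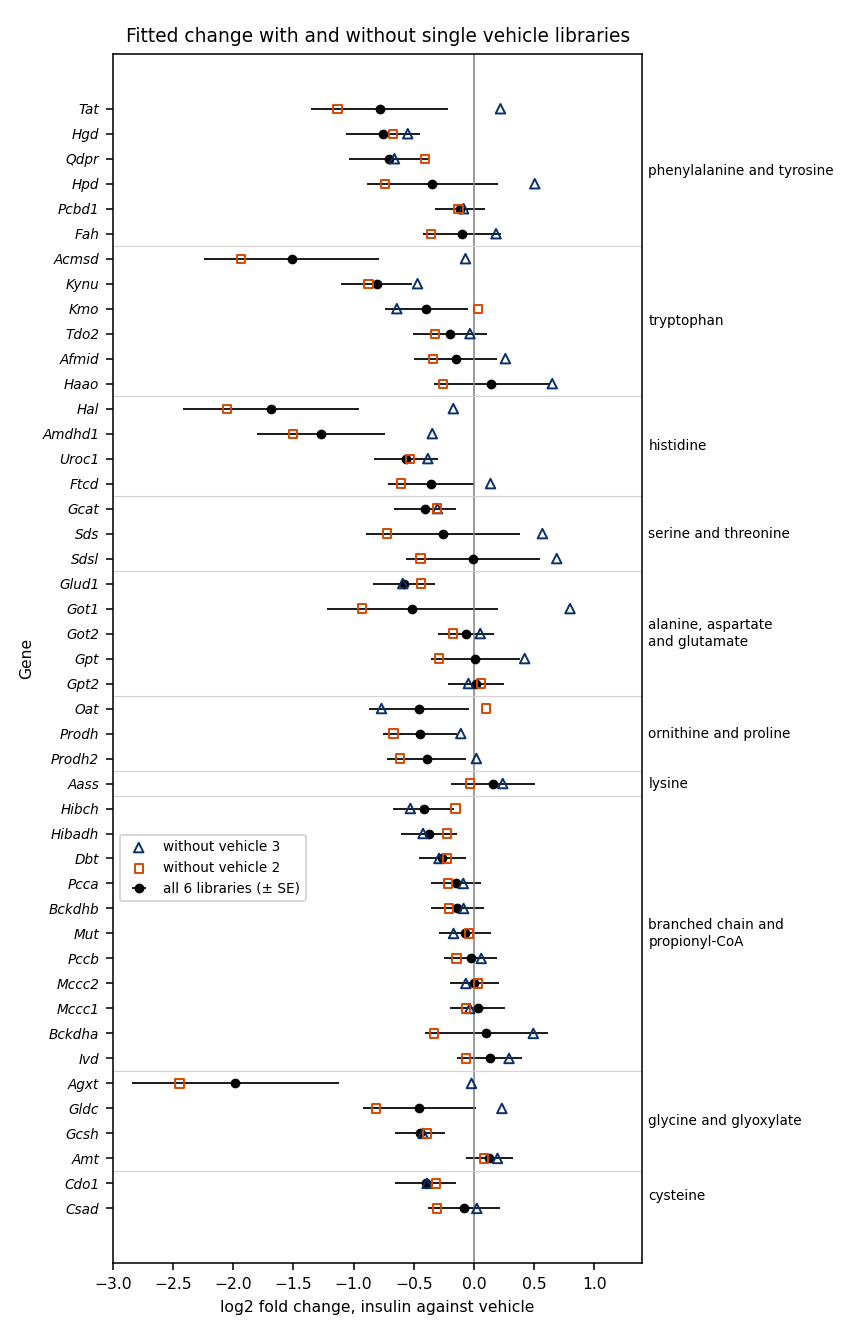
Log2 fold changes of the 45 members tested (insulin against vehicle), grouped by route, with SE as bars for the fit to all 6 libraries, and open symbols for the fits without vehicle replicate 3 (triangles) and without vehicle replicate 2 (squares). Filled points lie below 0 for 36 members, and the triangles of Agxt, Hal and Acmsd lie near 0, at −0.020, −0.17 and −0.069.

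The vehicle libraries were less alike than the insulin libraries. Library totals were between 18449986 and 21827619 counts, so depth was similar, and the biological coefficient of variation of the fit was 0.357. Across genes, which are not independent replicates, log2 levels of vehicle pairs correlated at 0.878 to 0.948 and those of insulin pairs at 0.980 to 0.985. Vehicle replicate 2 deviated by the GC content of the transcripts. Its log2 deviation had a slope of −1.13 per 10 percentage points of GC, against slopes of −0.064 to 0.19 in the other 5 libraries. It also held the highest sum of erythroid markers, at 1587 CPM (read counts relative to the TMM-adjusted library size) against 312 to 626 CPM elsewhere, and of B cell markers, at 40.3 CPM against 2.86 to 10.04 CPM. Hepatocyte markers were high in all 6 libraries, with summed levels of 52388 to 152117 CPM. The sum was highest in vehicle replicate 2, where Alb made up 138554 CPM of it. Of the 5 hepatocyte markers tested, 2 were highest and 2 lowest in that liver. The lowest were Apoa1, at 3901 CPM against 7730 to 12978 CPM, and Hnf4a, at 445 CPM against 506 to 783 CPM. Markers of kidney summed to at most 9.88 CPM, with Slc12a1 at 0, and 4 of 5 pancreas markers were at 0 in every library. In bulk liver, fewer cells of a type and less RNA per cell cannot be told apart.

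Vehicle replicate 3 stood apart by the members themselves. Their counts made up 2.65% of its total (exact 95% Clopper-Pearson interval 2.64 to 2.66%, counting error only), against 1.49% to 1.89% in the other libraries. Summed over the 45 members, its level was 27336 CPM, and the other 5 libraries held 14781 to 18091 CPM. It was the highest of the 6 libraries for 28 members (62.2%, beside 23.4% of all genes). In this liver 13 members were at least 2-fold above the median of the other 5 (28.9% of the members, beside 4.75% of all genes), and no member was 2-fold below it. Just inside that threshold were Hgd at 2.03-fold and Prodh2 at 2.03-fold, and just outside were Sdsl at 1.90-fold and Afmid at 1.89-fold.

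**Figure D2:**
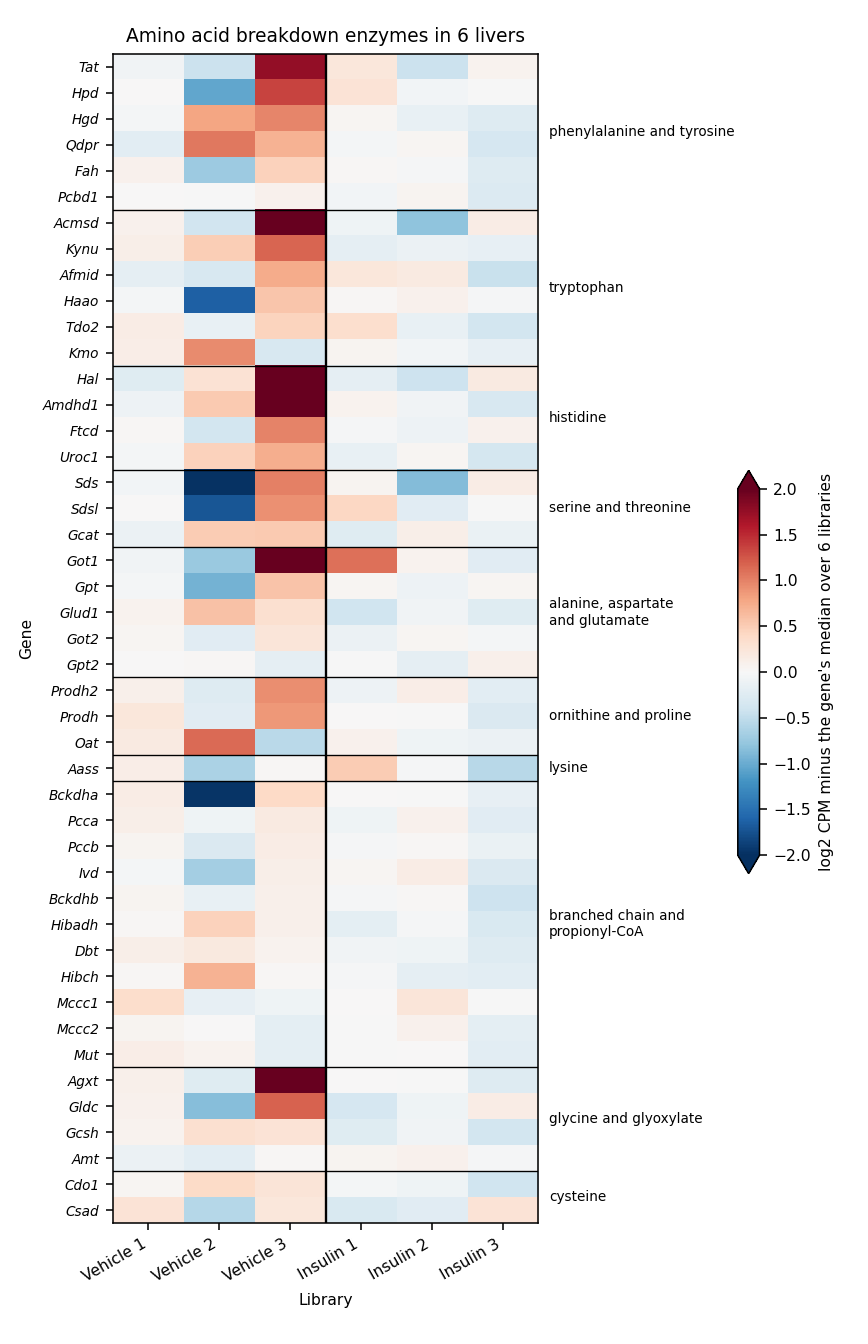
Log2 CPM of each member minus its own median over the 6 libraries, with libraries in columns, genes in rows grouped by route, and the colour scale ending at −2 and 2. Red cells gather in the vehicle 3 column for tyrosine, tryptophan, histidine and glyoxylate enzymes. Of the 11 branched chain and propionyl-CoA enzymes, Bckdha is highest in that column, at 0.40.

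The 5 members with the largest deviation in vehicle replicate 3 belong to 4 routes. Agxt, which moves the amino group of alanine onto glyoxylate, was at 189, 149 and 1641 CPM in the vehicle livers (replicates 1, 2 and 3, the order used throughout), against 177, 177 and 147 CPM in the insulin livers. The third vehicle liver thus lay 9.27-fold above the median of the others, which ranged from 147 to 189 CPM. Hal, the lyase that opens histidine breakdown, had 97.3, 141 and 785 CPM with vehicle, against 102, 86.3 and 129.7 CPM with insulin, a 7.70-fold excess in the same liver. Acmsd, which diverts tryptophan carbon from NAD synthesis, was low in all livers, at 7.35, 5.28 and 38.9 CPM with vehicle, against 6.48, 3.90 and 7.70 CPM with insulin. Amdhd1 was measured at 55.8, 85.9 and 262 CPM with vehicle, against 62.5, 57.1 and 47.7 CPM with insulin. Got1, the cytosolic aspartate aminotransferase, had 161, 102 and 713 CPM with vehicle, against 362, 178 and 145 CPM with insulin, where insulin replicate 1 was also high. For each of the 5 the groups overlapped, because vehicle replicate 1 or 2 lay within the insulin range or below it.

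These 5 were chosen for their level in that liver, so their values with and without it are a description. Log2 fold changes with all 6 libraries were −1.98 ± 0.86 (SE) for Agxt, −1.69 ± 0.73 for Hal, −1.51 ± 0.73 for Acmsd, −1.27 ± 0.53 for Amdhd1 and −0.51 ± 0.71 for Got1. Without vehicle replicate 3 the estimates were −0.020, −0.17, −0.069, −0.35 and 0.80 in that order.

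**Figure D3:**
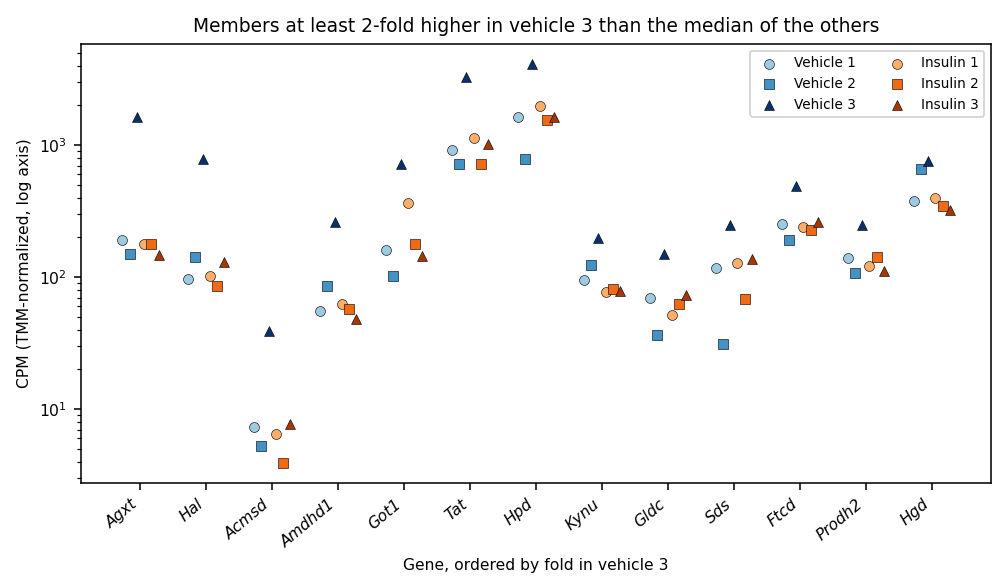
TMM-normalized CPM on a log axis for the 13 members that were at least 2-fold higher in vehicle replicate 3 than the median of the other libraries, 1 point per liver. The vehicle 3 triangle is the highest point for each of the 13, at 1641 CPM for Agxt and 38.9 CPM for Acmsd.

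Other liver genes also stood apart in vehicle replicate 3. Its 7 periportal markers summed to 7444 CPM, against 2073 to 2726 CPM in the other libraries, and each of the 7 was highest there. Ass1, Asl and Gls2, of the urea cycle and glutamine breakdown, deviated there by log2 values of 1.84, 1.84 and 1.86. The 8 pericentral markers summed to 11810 CPM, within the 8956 to 15386 CPM of the others, a sum made up mostly of Cyp2e1. Of the 8, 2 were highest there, among them Cyp1a2 at 424 CPM against 157 to 184 CPM. Glul, at 797 CPM against 829 to 1309 CPM, and Slc1a2, at 87.5 CPM against 144 to 202 CPM, were lowest there. Endothelial markers summed to 259 CPM against 139.7 to 163 CPM, with 5 of 6 highest there. Pck1 and G6pc of gluconeogenesis were highest there too, at 3543 CPM and 365 CPM, and so was Igfbp1, which insulin is known to repress, at 266 CPM against 3.99 to 60.2 CPM elsewhere. Neutrophil markers were lowest there, at a sum of 4.63 CPM against 31.0 to 77.6 CPM. The sum of adipocyte markers was also lowest there, at 23.1 CPM against 42.3 to 199 CPM. That low sum went with Cfd, at 0.14 CPM there and at up to 154 CPM elsewhere. Fabp4, the other adipocyte marker tested, was not lowest there, at 22.9 CPM against 17.3 to 45.0 CPM. The part of these quantities in the members' deviation was not tested.

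Upstream sequences of 4 of the 5 members that deviated most (log2 deviation of at least 2 in this liver, chosen after the values were seen) are shown because they are high in the same liver. Each holds the 250 bases before the RefSeq gene start (GRCm38.p6), written 5′ to 3′ on the strand of the gene. Capitals mark TGACG, the core of the cyclic AMP response element, and TGTTCT, the core sequence bound by the glucocorticoid receptor, both searched on either strand.
Agxt, chr1:93134990-93135239, plus strand: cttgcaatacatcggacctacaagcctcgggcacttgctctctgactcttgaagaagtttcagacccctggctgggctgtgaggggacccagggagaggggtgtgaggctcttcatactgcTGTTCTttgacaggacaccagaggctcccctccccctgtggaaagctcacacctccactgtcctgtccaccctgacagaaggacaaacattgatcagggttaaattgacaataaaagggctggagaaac
Hal, chr10:93488518-93488767, plus strand: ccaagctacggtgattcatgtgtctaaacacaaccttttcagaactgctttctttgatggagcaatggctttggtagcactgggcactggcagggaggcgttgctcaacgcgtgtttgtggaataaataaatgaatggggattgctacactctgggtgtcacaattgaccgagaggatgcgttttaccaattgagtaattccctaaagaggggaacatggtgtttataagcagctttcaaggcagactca
Amdhd1, chr10:93540034-93540283, minus strand: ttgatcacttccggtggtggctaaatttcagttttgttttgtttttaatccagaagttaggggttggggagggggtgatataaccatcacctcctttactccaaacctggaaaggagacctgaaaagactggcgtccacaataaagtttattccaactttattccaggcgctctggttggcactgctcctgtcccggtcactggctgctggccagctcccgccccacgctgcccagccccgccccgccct
Got1, chr19:43524606-43524855, minus strand: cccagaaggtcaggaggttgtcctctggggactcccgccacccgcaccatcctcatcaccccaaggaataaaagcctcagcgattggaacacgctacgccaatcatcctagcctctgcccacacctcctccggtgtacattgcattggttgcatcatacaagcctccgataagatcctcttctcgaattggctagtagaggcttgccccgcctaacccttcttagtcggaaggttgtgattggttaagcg
TGTTCT was found at 1 place before Agxt and TGACG was not, and neither motif was found in the windows of Hal, Amdhd1 and Got1. TGACG was present in 17.8% and TGTTCT in 16.1% of 32851 RefSeq promoters of this length. Of the 41 promoter entries that matched 38 member genes, 5 (12.2%) held TGACG and 5 (12.2%) held TGTTCT. A match is a description of these letters only. Hal (chr10:93488768-93519304) and Amdhd1 (chr10:93523338-93540033) are neighbours whose 3′ ends face each other across 4033 bases, with no annotated gene between them.

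Histidine is broken down in 4 member steps, and all 4 transcripts were highest in vehicle replicate 3. Summed over Hal, Uroc1, Amdhd1 and Ftcd, the level was 1838 CPM in that liver and 558 to 668 CPM in the other 5. Uroc1, the urocanate hydratase, was at 176, 249.9 and 298 CPM with vehicle, against 163, 186 and 141 CPM with insulin. Its log2 fold change was −0.56 ± 0.27 and −0.38 without vehicle replicate 3. Ftcd, which passes the formimino group to folate, had 252, 191 and 493 CPM with vehicle, against 242, 229 and 261 CPM with insulin, and its log2 fold change went from −0.36 to 0.14 without that liver. The median of the route was −0.92 with all libraries and −0.26 without it. Amdhd1 met the study's criteria with all libraries and without vehicle replicate 2, and did not without vehicle replicate 3.

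The route of phenylalanine and tyrosine had the highest summed level of the 10 in vehicle replicate 3, at 9183 CPM against 2912 to 4235 CPM elsewhere. Tat, which takes the amino group from tyrosine, was at 916, 714 and 3268 CPM with vehicle, against 1122, 717 and 1011 CPM with insulin, with the third vehicle liver far above the other 5, which lay between 714 and 1122 CPM. Its log2 fold change was −0.78 ± 0.57 with all libraries and 0.22 without that liver. Hpd, the dioxygenase of the next step, had 1623, 789 and 4124 CPM with vehicle, against 1962, 1560 and 1620 CPM with insulin, so its highest and its lowest liver were both vehicle livers. Its log2 fold change was −0.35 ± 0.54, with 0.51 when vehicle replicate 3 was left out and −0.74 when vehicle replicate 2 was.

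Hgd (chr16:37580153-37632020), which opens the homogentisate ring, was at 374, 662 and 758 CPM with vehicle, against 396, 346 and 321 CPM with insulin. Vehicle replicates 2 and 3 lay above every insulin liver, and vehicle replicate 1 lay within their range. The means were 598 ± 199.8 CPM (SD, n = 3) with vehicle and 354 ± 38.1 CPM (SD, n = 3) with insulin, a log2 fold change of −0.76 ± 0.31. The estimate was −0.55 with vehicle replicate 3 left out and −0.67 with vehicle replicate 2 left out, and Hgd met the study's criteria in neither fit. Fah, the last enzyme, had a log2 fold change of −0.10 ± 0.33. Of the enzymes that recycle tetrahydrobiopterin, a cofactor of aromatic amino acid metabolism, Qdpr was at 135, 323 and 251 CPM with vehicle, against 152, 159 and 123 CPM with insulin. Qdpr was highest in vehicle replicate 2, and its log2 fold change was −0.71 ± 0.34 and −0.41 without that liver. Pcbd1, the dehydratase of the same cycle, had a log2 fold change of −0.11 ± 0.21.

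Tryptophan enzymes had a median log2 fold change of −0.29, and of −0.051 without vehicle replicate 3. Tdo2, the dioxygenase that opens the indole ring, was at 2813, 2301 and 3476 CPM with vehicle, against 3214, 2312 and 1979 CPM with insulin, and the groups overlapped. Its log2 fold change was −0.19 ± 0.31. Kynu (chr2:43555329-43682715) was at 95.2, 124 and 197 CPM with vehicle, against 77.5, 81.5 and 78.7 CPM with insulin. All 3 vehicle livers lay above all 3 insulin livers, which held a narrow range. The log2 fold change of Kynu was −0.81 ± 0.29, −0.47 once vehicle replicate 3 was left out and −0.88 once vehicle replicate 2 was, and Kynu met the study's criteria in the last of these fits as well as with all libraries. With a correction for GC content Kynu was at −0.64 and no longer met them. Among the remaining steps, Kmo, the monooxygenase before Kynu, had 458, 803 and 335 CPM with vehicle, against 437, 401 and 375 CPM with insulin. Kmo was highest in vehicle replicate 2, and its log2 fold change was −0.39 with all libraries and 0.033 without that liver. Haao, the dioxygenase after Kynu, had 289, 95.5 and 435 CPM with vehicle, against 302, 315 and 289 CPM with insulin, so vehicle replicate 2 was lowest by far. Afmid, the kynurenine formamidase, had a log2 fold change of −0.15 ± 0.35.

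Glycine and glyoxylate enzymes were dominated by Agxt, and their summed level was 1931 CPM in vehicle replicate 3 against 320 to 382 CPM in the others. Of the glycine cleavage system, Gldc, the decarboxylating P protein, had 69.6, 36.5 and 149.9 CPM with vehicle, against 52.0, 62.2 and 72.8 CPM with insulin, with the highest and lowest livers both in the vehicle group. Gcsh, the lipoate-bearing H protein, was at 95.5, 114 and 109.7 CPM with vehicle, against 76.9, 86.6 and 70.7 CPM with insulin, without overlap. Its log2 fold change was −0.44 ± 0.21, and leaving out either of these vehicle livers (3 or 2) gave −0.42 or −0.39. Amt, the T protein, was at 27.7, 26.2 and 30.8 CPM with vehicle, against 31.2, 31.8 and 29.5 CPM with insulin, a log2 fold change of 0.13 ± 0.20.

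Serine and threonine enzymes showed both unusual vehicle livers at once. Sds, the serine dehydratase that forms pyruvate, was at 118, 31.4 and 249 CPM with vehicle, against 129, 67.8 and 137 CPM with insulin. Its paralog Sdsl, which lies 3715 bases away, was at 21.6, 6.45 and 40.3 CPM with vehicle, against 28.5, 18.3 and 21.2 CPM with insulin. For both, vehicle replicate 3 was highest and vehicle replicate 2 lowest, and the insulin livers lay between. For Sds the log2 fold change was −0.26 ± 0.64, and leaving out vehicle replicate 3 or vehicle replicate 2 gave 0.57 or −0.72. For Sdsl these values were −0.0083 ± 0.56, 0.69 and −0.44. Gcat, which cleaves aminoketobutyrate to glycine, had 12.0, 18.5 and 18.7 CPM with vehicle, against 11.03, 14.1 and 11.9 CPM with insulin, and its log2 fold change was −0.41 ± 0.26.

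Among the enzymes of alanine, aspartate and glutamate, Glud1 (chr14:34310727-34345265) was the member whose groups separated. This glutamate dehydrogenase frees ammonia in the mitochondria, and it had 928, 1326 and 1105 CPM with vehicle, against 666, 835 and 745 CPM with insulin. Every vehicle liver lay above every insulin liver, with means of 1120 ± 199 CPM and 749 ± 84.4 CPM (SD, n = 3 each). The log2 fold change was −0.58 ± 0.26, just outside the study's criteria. It stayed close to this without vehicle replicate 3, at −0.59, and was −0.44 without vehicle replicate 2, so neither liver alone set its direction. The aminotransferase pairs differed from each other in vehicle replicate 3. Cytosolic Got1 deviated there by 4.43-fold and mitochondrial Got2 by 1.21-fold, and cytosolic Gpt by 1.52-fold and mitochondrial Gpt2 by 0.88-fold. Log2 fold changes of Got2, Gpt and Gpt2 were −0.065 ± 0.23, 0.012 ± 0.37 and 0.017 ± 0.24.

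Ornithine and proline enzymes split by vehicle library. Oat, the ornithine aminotransferase, was at 1710, 3298 and 1041 CPM with vehicle, against 1606, 1420 and 1387 CPM with insulin, so its vehicle livers lay on both sides of the insulin livers. Vehicle replicate 2 was its highest liver and vehicle replicate 3 its lowest. Its log2 fold change was −0.45 ± 0.42, −0.77 with vehicle replicate 3 left out and 0.10 with vehicle replicate 2 left out. Oat was the member that met the study's criteria without vehicle replicate 3. Prodh, the proline dehydrogenase, was at 162, 118 and 252 CPM with vehicle, against 139, 137 and 113 CPM with insulin. Its paralog Prodh2, which acts on hydroxyproline, had 139, 108 and 246 CPM with vehicle, against 121, 142 and 112 CPM with insulin. Both were highest in vehicle replicate 3, and their log2 fold changes of −0.45 and −0.39 were −0.11 and 0.021 without it. Lysine was represented by Aass, which joins lysine to oxoglutarate and splits the product, at 818, 484 and 764 CPM with vehicle, against 1061, 735 and 512 CPM with insulin. The groups overlapped widely, with a log2 fold change of 0.16 ± 0.35 for Aass.

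Branched chain and propionyl-CoA enzymes had a narrow range of summed level, which lay between 1094 and 1349 CPM in the 6 livers, at 1342 CPM in vehicle replicate 3. None of the 11 was 2-fold above the others there, beside 4.75% of all genes. At that share, 0 of 11 does not set the route apart from genes in general. Log2 fold changes ran from −0.41 to 0.13, with SEs of 0.20 to 0.51 and a median of −0.077, which was −0.085 without vehicle replicate 3. These estimates leave room for differences of the size of their SEs, and differences between routes were not tested. Bckdha, which with Bckdhb forms the decarboxylating part of the branched chain ketoacid dehydrogenase, had 67.2, 15.5 and 79.9 CPM with vehicle, against 61.1, 59.8 and 54.1 CPM with insulin. Vehicle replicate 2 was far below the rest for Bckdha, while Bckdhb there was at 61.02 CPM, within the range of 50.6 to 72.9 CPM in the other livers. Of the valine steps, Hibch, the hydroxyisobutyryl-CoA hydrolase, was at 74.2, 118 and 74.3 CPM with vehicle, against 71.99, 64.6 and 63.2 CPM with insulin. Hibadh, the dehydrogenase that follows, had 268, 361 and 282 CPM with vehicle, against 231, 259.7 and 214 CPM with insulin. Dbt, the transacylase core of the dehydrogenase complex, had 103, 109 and 99.7 CPM with vehicle, against 90.5, 89.8 and 79.3 CPM with insulin. In all 3 the lowest vehicle liver lay above the highest insulin liver, by little for Hibch and Hibadh, and their log2 fold changes were −0.41 ± 0.25, −0.37 ± 0.23 and −0.26 ± 0.20. Leaving out vehicle replicate 2, the highest liver for all 3, gave −0.15, −0.22 and −0.22, and the GC correction gave −0.29, −0.091 and −0.069. The leucine enzymes Ivd, Mccc1 and Mccc2 had log2 fold changes of 0.13, 0.031 and 0.0048. Pcca, Pccb and Mut, which carry propionyl-CoA to succinyl-CoA, had −0.15, −0.028 and −0.077 on the same scale, and Pccb, the most abundant of the route per kb of transcript, was at 197, 154 and 209 CPM with vehicle, against 185, 192 and 172 CPM with insulin.

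Cysteine is oxidized by Cdo1, which was at 1888, 2391 and 2194 CPM with vehicle, against 1778, 1730 and 1394 CPM with insulin. Its vehicle livers all lay above its insulin livers, and the log2 fold change was −0.40 ± 0.26, −0.39 without vehicle replicate 3. Csad, which acts next on the way to taurine, had 115, 63.8 and 111 CPM with vehicle, against 76.7, 81.2 and 115 CPM with insulin, with overlap.

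Counting over all routes, the groups did not overlap for 7 members, each lower with insulin (15.6%, beside 6.04% of all genes), and for no member higher with insulin (6.25% of all genes). The 7 were Kynu, Glud1, Gcsh, Hibch, Cdo1, Hibadh and Dbt. Of these, Kynu alone was among the 13 members at least 2-fold higher in vehicle replicate 3. In either direction, 15.6% of the members and 12.3% of all genes did not overlap. Leaving out vehicle replicate 3 gave 26.7% and 31.2%, leaving out vehicle replicate 2 gave 33.3% and 19.2%, and leaving out vehicle replicate 1 gave 31.1% and 30.7%. None of the 7 had an adjusted p below 0.852 (edgeR).

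**Figure D4:**
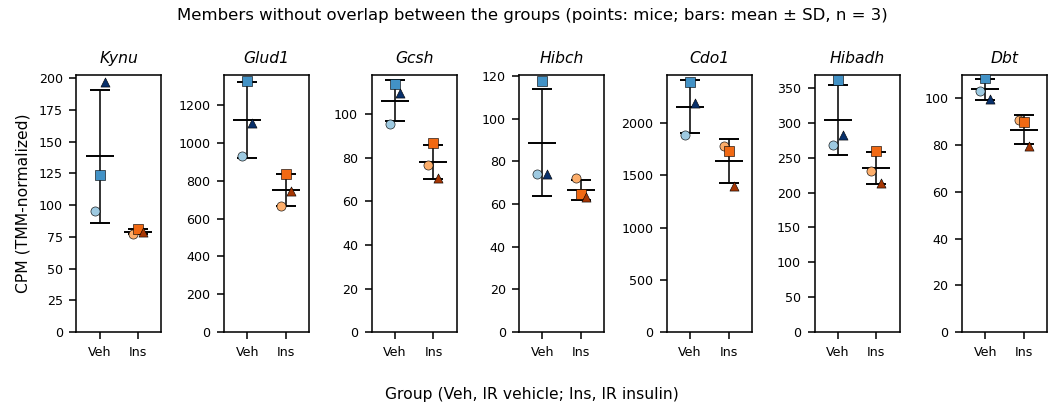
TMM-normalized CPM of the 7 members whose vehicle and insulin livers do not overlap, with 1 point per mouse and bars for the mean ± SD (n = 3). The lowest vehicle point lies above the highest insulin point in each panel, by 95.2 against 81.5 CPM for Kynu and by 928 against 835 CPM for Glud1.

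The members' values in vehicle replicate 2 went partly with GC content. Across the 45 members, the deviation of this liver from the median of the others had a Spearman correlation of −0.54 with transcript GC, beside −0.67 over all genes tested. The points share 1 library, and this is a description. Members at least 2-fold below the others there were 5, Sds, Bckdha, Sdsl, Haao and Hpd (11.1% of the 45, beside 20.7% of all genes), and 2 were at least 2-fold above, Oat and Qdpr (4.44%, beside 11.8%). Transcript GC was 57.4% for Sds, 57.9% for Bckdha, 60.2% for Sdsl, 51.1% for Haao and 54.1% for Hpd. Haao, with a log2 deviation of −1.66, lay well below the median deviation of −0.061 to −0.25 of the gene bins nearest its GC. Over all genes, the bin of 669 genes with a median GC of 60.8% had a median deviation of −1.76 in this liver. In vehicle replicate 3 the members' correlation with GC was 0.41, beside 0.15 over all genes. With a correction for GC content the members' median log2 fold change was −0.35, beside −0.061 over all genes, and 12 members (26.7%) met the study's criteria, all lower with insulin, beside 2.84% of all genes. They were Agxt, Amdhd1, Ftcd, Gcat, Gcsh, Glud1, Hal, Hgd, Prodh, Prodh2, Qdpr and Uroc1. The correction moved Prodh2, Qdpr, Uroc1 and Gcat away from 0, to −0.84, −0.99, −0.86 and −0.92. It moved Kynu, Hibch, Hibadh and Dbt toward 0.

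**Figure D5:**
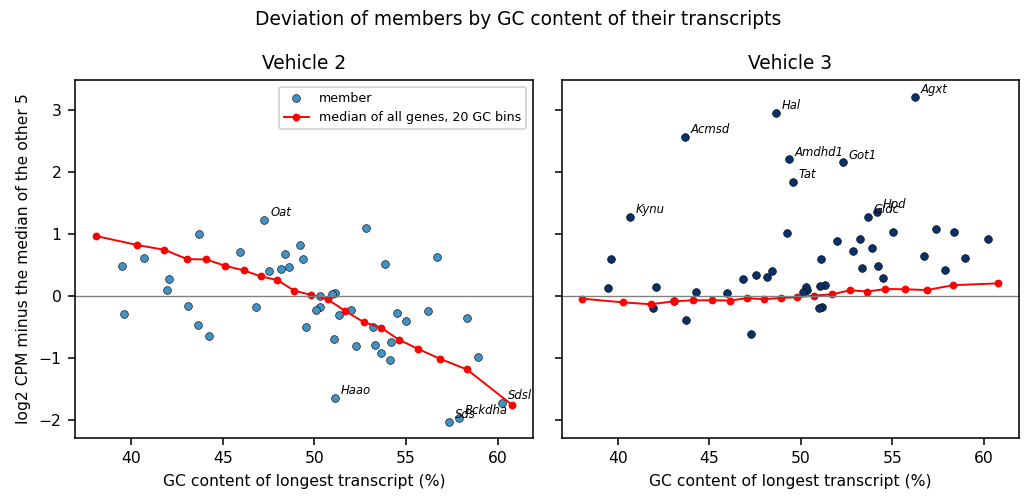
Log2 CPM of each member minus the median of the other 5 libraries against the GC content of its longest transcript (%), in vehicle replicates 2 and 3, with the median of all genes tested in 20 GC bins as a line. The line falls from 0.96 to −1.76 in vehicle replicate 2 and stays between −0.14 and 0.20 in vehicle replicate 3, where Agxt and Hal lie highest.

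Transcript levels differed widely among members. Per kb of longest transcript, and as a mean over the 6 libraries, Hpd was highest at 1386 CPM per kb, followed by Cdo1 at 1189, Oat at 810, Tdo2 at 782 and Tat at 544 CPM per kb. Acmsd was lowest of those tested, at 4.27 CPM per kb, beside 5.99 for Mccc1 and 6.06 for Gcat. This order depended on vehicle replicate 3, and over the other 5 livers Cdo1 came first at 1151 CPM per kb, before Hpd at 1076, Oat at 876, Tdo2 at 736 and Tat at 377. The annotation places another gene over Hpd, Oat, Hgd, Qdpr, Kmo, Afmid, Sds, Gcat, Prodh, Csad, Acmsd, Gldc, Got2 and several branched chain members. It was not stated how overlaps were counted or whether strand was used, so their counts may hold or lack reads shared with the overlapping gene. Hpd, Oat, Afmid, Gcat and some of the branched chain members overlap a gene on the same strand, which strand alone would not resolve.

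Other lists of amino acid handling also had 0 genes at an adjusted p below 0.05 by edgeR, and 1 gene in each of the cofactor and transporter lists had an unadjusted p below 0.05. Of 43 other breakdown enzymes tested, 17 had a higher and 26 a lower fitted level with insulin, with a median log2 fold change of −0.091. Gstz1, the isomerase between Hgd and Fah, had a log2 fold change of −0.49 ± 0.25. Among 10 cofactor enzymes and kinase regulators, Pts, which makes tetrahydrobiopterin, met the criteria at −0.64 ± 0.26. Ppm1k, the phosphatase that activates the branched chain dehydrogenase, was at −0.87 ± 0.39. Both were highest in vehicle replicate 2, and without it Pts was at −0.39 and Ppm1k at −0.33.

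Among 19 amino acid transporters of the liver, 8 had a higher and 11 a lower fitted level, and Slc38a2 met the criteria. This sodium-coupled carrier of small neutral amino acids was at 43.6, 97.1 and 134 CPM with vehicle, against 42.4, 40.6 and 47.05 CPM with insulin, a log2 fold change of −1.08 ± 0.38 and −0.70 without vehicle replicate 3. Slc7a2, which carries cationic amino acids, was at −0.94 ± 0.41, and at −0.46 without that liver. None of 16 transcription factors linked to these enzymes met the criteria, and 10 of them had a higher fitted level with insulin. Klf15, a factor known to promote amino acid breakdown in fasting, was at 58.1, 48.3 and 234 CPM with vehicle, against 45.9, 53.1 and 65.96 CPM with insulin. Klf15 therefore deviated in the same liver as Agxt and Hal, and its log2 fold change went from −1.04 to 0.049 without that liver. Of 7 genes known to respond to insulin, Fasn, the fatty acid synthase, met the criteria with a higher level under insulin, at 0.74 ± 0.29. With the GC correction it was at 0.32 and no longer met them.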

How the data were processed

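Liver RNA of 6 mice was sequenced, with group and replicate as the sample labels give them. The deposited table holds raw read counts per gene, which the authors made without normalization or pooling. Per the study's methods, libraries were made with the NEBNext Ultra kit and sequenced on an Illumina HiSeq, and per the submitters' processing notes reads were aligned with Bowtie2 2.2.3 to mm10. The counting program, its annotation and its use of strand are not given in the sources used here. An aligner that does not split reads can lose those that cross exon junctions.

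Here the counts (18449986 to 21827619 per library) were tested in edgeR 4.0.16 (glmQLFit and glmQLFTest, R 4.3.3), IR insulin against IR vehicle, with TMM normalization and no covariate. Genes were kept by filterByExpr (minimum count 10, minimum total 15), and p values were adjusted over 13377 genes by the Benjamini-Hochberg method. CPM are counts relative to the TMM-adjusted library size, and SEs were derived from the F statistic. The deviation of a library was its log2 CPM (prior count 2) minus the median of the other 5. Positions, overlaps and GC content came from GENCODE M21 (mm10), in which 54495 of 54532 genes (99.9%) were found, and sequences from RefSeq (GRCm38.p6). The count test was tested on simulated counts with less spread between replicates than these livers, no GC trend and no deviating library. That run therefore does not show how the test behaves on these data.

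The members and lists were chosen with earlier results of these data known. Values in every library are given by rule for the 2 members of each route with the smallest p and the one with the highest CPM per kb (all in routes of 3 or fewer), and for the paralog pairs. From the other lists the 3 genes with the smallest p could be named, and a gene and an upstream sequence that these rules select are not reported here. Tat, Uroc1, Kmo, Haao, Gldc, Amt, Bckdha, Bckdhb, Dbt, Gstz1, Igfbp1 and the named markers were chosen after their values were seen. Alternatives were RLE and upper-quartile size factors, all genes with at least 1 count, DESeq2 1.42.0, voom with sample weights (limma 3.58.1), a GC offset (loess, span 0.5, GC content known for 13367 genes), a replicate block and each library left out. Leaving out vehicle replicates 2 and 3 together was added after the data were seen.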

Additional observations from a re-analysis of the deposited data

How the results depend on the processing

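Of the alternatives that kept more than 1 liver per group, none gave a member, or any other gene, at an adjusted p below 0.05. None of them gave a member higher with insulin by the study's criteria. Over all genes, those higher by these criteria ran from 32 of 13621 (without insulin replicate 1) to 616 of 13750 (without vehicle replicate 1). Members that met these criteria, all lower, numbered 3 in the fit reported (6.67%, beside 1.86% of all genes), 5 with RLE size factors (2.06% of all genes), 2 with upper-quartile factors (1.52%), 6 with every gene of at least 1 count (1.94%), 7 with DESeq2 (2.69%), which left the p of Agxt empty, 1 with voom (0.785%) and 12 with the GC offset (2.84%). With single libraries left out they numbered 0 to 10, namely 10 without vehicle replicate 1 (5.33% of all genes), 9 without vehicle replicate 2 (2.06%), 1 (Oat) without vehicle replicate 3 (4.86%) and 0 without any of the 3 insulin libraries (0.492% to 0.505%). Without vehicle replicates 2 and 3 together, the median log2 fold change of the members was −0.0996, beside 0.019 over all genes. In that fit the lone vehicle library was assumed to vary like the insulin group. The members' median ran from −0.45 to −0.045 with single libraries left out, the latter without vehicle replicate 3, and from −0.36 to −0.16 under RLE, upper-quartile, no filter, DESeq2, voom and the GC offset. The number of members whose groups did not overlap ran from 8 to 15 (17.8% to 33.3%) with single libraries left out, against 7. The share over all genes ran from 17.9% to 31.2% in the same fits, where fewer samples make overlap less likely.

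Deviations of same-numbered livers correlated at −0.039, 0.069 and 0.017, and those of livers with other numbers at −0.11 to 0.089. With 3 livers per group, this cannot decide whether replicate numbers pair the samples. With the replicate block 1 member met the criteria with a lower level (Kynu, 2.22% of the members, beside 0.882% of all genes). With the block and GC offset 4 did (8.89%, beside 1.504% of all genes). The members' medians were −0.20 and −0.29 in that order.

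Directions turned for Pccb with upper-quartile factors (0.012) and without the filter (0.0054), Got1 with voom (0.083), Sds with the replicate block (0.12) and Tdo2 with the block and GC offset (0.083). Without vehicle replicates 2 and 3 together they turned for Aass (−0.081), Amdhd1 (0.0069), Gcat (0.048), Got1 (0.51), Hal (0.13), Hpd (0.085) and Qdpr (0.11). With single libraries left out, the log2 fold change ran from −0.31 to 0.064 for Csad, −0.14 to 0.061 for Pccb, −0.14 to 0.39 for Aass, −0.77 to 0.10 for Oat, −0.61 to 0.14 for Ftcd, −1.001 to 0.80 for Got1, −0.74 to 0.51 for Hpd, −0.61 to 0.021 for Prodh2 and −0.72 to 0.57 for Sds. Of 359 values over 24 named members, 26 turned direction, 24 lost and 34 gained an unadjusted p below 0.05 in the same direction, and 275 did neither. The cause was not tested.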
